A study of Mus musculus with 7 samples.

Results

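Mitochondrial ribosomal protein genes were taken as the entries of the authors' gene table whose symbol starts with Mrpl or Mrps followed by a digit and names a single gene, which gave 76 of 23358 entries. They were compared between 3 control libraries and 4 libraries labelled as lacking Tgfbr2, a receptor of transforming growth factor β, here called the Tgfbr2-deficient group after that label. The 7 libraries are from the brain of C57Bl6 mouse embryos of stage E14.5, and their labels call the source endothelial cells. Both groups carried the Ai14 allele, from which Cre recombinase switches on the fluorescent protein TdTomato, and 2000 to 5000 TdTomato-positive cells were sorted for a library. Which Cre was used, which exons were deleted and what the controls carried otherwise was not given in the sources used here. For a gene and a group, the authors' table holds 1 value in FPKM, a fragment count scaled to transcript length and library size, so that levels can be compared between genes of different length. No values per library were analysed, so no spread between libraries, depth or interval can be given, and the q-value of the authors' test (a p-value adjusted over all genes they tested) is the error measure for each gene. Whether each library stands for its own embryo is not stated, so q reflects how much these libraries varied, and that variation may be technical.

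The mitochondrial ribosome translates the few messenger RNAs of the mitochondrial genome, all of which encode core subunits of the respiratory chain and ATP synthase. Its ribosomal RNAs come from mitochondrial DNA, while all its proteins are made from nuclear genes in the cytoplasm and imported. The large subunit joins amino acids, and the small subunit decodes the messenger. Many of the proteins have bacterial counterparts, and others were added in the mitochondrial lineage. Symbols do not always follow the subunit, since Mrps30 and Mrps18a belong to the large subunit, and Mrps36 is known as a component of the oxoglutarate dehydrogenase complex.

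The targeted gene, Tgfbr2, was at 91.1 FPKM in controls and still at 65.4 FPKM in the libraries labelled as lacking it, and it did not pass in the authors' deposited table (q = 0.0953). Markers of endothelium were low in the control group. The 10 endothelial markers summed to 22.5 FPKM there, from 0.394 for Erg to 5.02 for Cldn5, and to 276 FPKM in the Tgfbr2-deficient group, and 10 of 10 rose. The 10 macrophage and microglia markers summed to 8584 and 3815 FPKM, and 10 of 10 fell. None of these 20 markers was at 0 in either group. Erg, Flt1, Tek and Emcn were under 1 FPKM in controls and reached 1 FPKM only in the Tgfbr2-deficient group. Under the filter of 1 FPKM they could be counted only as higher. Over all tested genes, 23.9% rose and 14.7% fell. Marker sums also went from 123 to 1025 FPKM for 6 fibroblast genes, from 354 to 2154 FPKM for 5 erythroid genes, of which 4 rose and Epor fell, and from 107 to 246 FPKM for 6 neuron genes. The part of this change in cell markers in the results below was not tested. In these bulk samples, fewer cells of a type and less RNA per cell cannot be told apart.

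Transcripts of mitochondrial ribosomal proteins were lower in the Tgfbr2-deficient group across the family, mostly by a modest amount that was larger for abundant members. The authors tested all 76 genes, and each reached the 1 FPKM that the filter asked of the higher group. By a q under 0.05, 34 of the 76 fell (44.7%), 0 rose and 42 did not pass. The background for the same rule is 14.7% of 13356 tested genes lower and 23.9% higher. At the stricter q under 0.01, 10 of the 76 fell and 0 rose, beside 7.68% of tested genes lower and 20.3% higher. The median difference of the family on the log2(FPKM + 1) scale, Tgfbr2-deficient minus control, was −0.51, and its middle 50% ran from −0.63 to −0.38. The median of all tested genes on that scale was −0.08. Every one of the 76 had the lower value in the Tgfbr2-deficient group, as did 54.9% of all tested genes. This direction was more common among abundant genes. It was seen in 3821 of 4775 tested genes that reached 20 FPKM in a group, as 61 of the members did, and in 3516 of 8581 under that level. It was also not particular to the family, since 74 of 74 oxidative phosphorylation genes and 77 of 78 cytoplasmic ribosomal protein genes shared it. FPKM gives shares of the RNA sequenced, so each difference is relative. When the differences are centred on the cytoplasmic ribosomal protein genes, which adds 0.54 to each, the family median becomes 0.02 and 43 of the 76 genes lie above 0.

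Level moved with these counts, and abundant genes were called lower more often throughout the table. Of 4775 tested genes that reached 20 FPKM in a group, 31.5% were called lower and 9.78% higher, and of the 61 mitochondrial ribosomal protein genes among them 33 fell (54.1%) and 0 rose. Under 20 FPKM, 5.36% of 8581 tested genes were called lower and 31.8% higher, and 1 of 15 members fell and 0 rose. That 1 gene was Mrpl15. The median difference of the 61 abundant members was −0.54, beside −0.38 for all tested genes at that level. Among the 25 most abundant members 23 fell, among the middle 26 there were 8, and among the 25 least abundant 3. The exceptions among the most abundant were Mrpl20, at 71.2 and 54.5 FPKM, and Mrpl52, at 61.0 and 42.7 FPKM. Across the 76 members, mean level and log2 difference had a Spearman correlation of −0.64 (Pearson −0.64). Across all 13356 tested genes the Spearman value was −0.53 (Pearson −0.40). Both are descriptions across genes of the same libraries, and the level enters both axes.

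**Figure D1:**
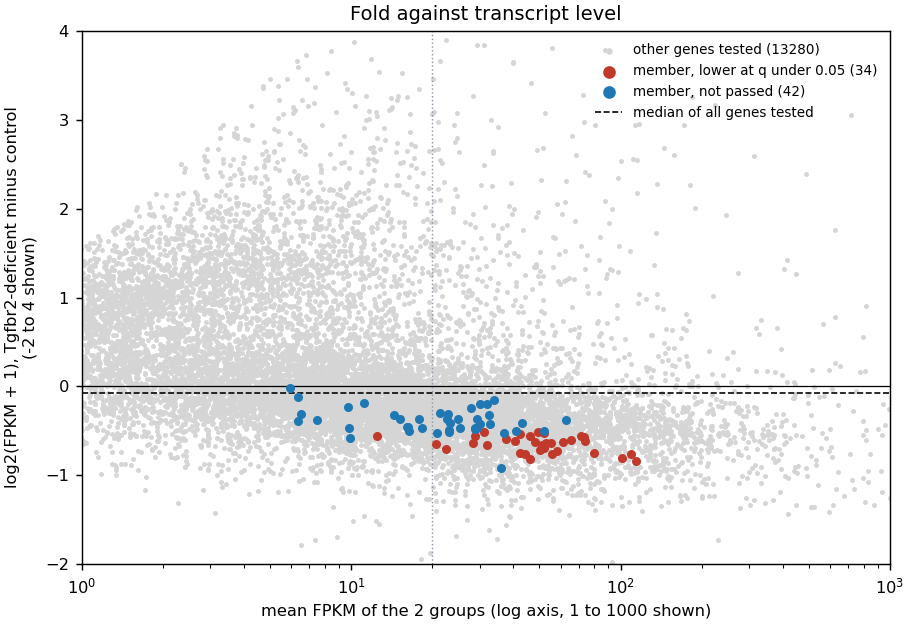
Each point is a gene, with the mean FPKM of both groups on a log axis and the log2(FPKM + 1) difference, Tgfbr2-deficient minus control, on the vertical axis; grey points are other tested genes, and axes are limited to the ranges given on them. The 34 members called lower (red) and the 42 that did not pass (blue) form a narrow band below 0, and the dotted line marks 20 FPKM.

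Promoter sequences are shown for members that fell and carry a motif of a factor known to serve nuclear genes of mitochondria, and for pairs of genes that start back to back. NRF1 and the ETS factor GABP are textbook activators of such genes. RefSeq promoter windows of GRCm38.p6, from 250 bases before to 50 bases after each annotated start, were matched to 67 of the 76 genes, with 73 windows. Mrpl54, Mrpl4, Mrpl13, Mrpl19, Mrpl15, Mrpl38, Mrps34, Mrps35 and Mrps28 had no matching entry. The sequences below run 5′ to 3′ on the strand of the gene named and end at the base before its RefSeq start, and capitals mark matches to the motifs searched.
Mrpl3: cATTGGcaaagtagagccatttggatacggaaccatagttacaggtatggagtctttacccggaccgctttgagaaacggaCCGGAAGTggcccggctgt
Mrpl12: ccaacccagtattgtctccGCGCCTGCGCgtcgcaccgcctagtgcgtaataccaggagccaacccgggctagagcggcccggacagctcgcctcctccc
Mrps12: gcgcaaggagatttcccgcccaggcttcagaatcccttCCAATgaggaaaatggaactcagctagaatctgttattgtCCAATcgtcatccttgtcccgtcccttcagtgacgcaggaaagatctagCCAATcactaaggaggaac
Mrpl46: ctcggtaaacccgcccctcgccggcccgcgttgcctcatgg
The first pair are the 100 bases before the start of Mrpl3 (chr9:105053168-105053267, plus strand) and Mrpl12 (chr11:120484537-120484636, plus). Mrpl3 carries the ETS letters CCGGAAGT, 19 bases before the start, and a CCAAT box on the other strand. Mrpl12 carries an NRF1 match, GCGCCTGCGC, beginning 81 bases before the start. The sequence under Mrps12 is the whole stretch of 146 bases (chr7:28741822-28741967, minus) between its RefSeq start and that of Sars2, the mitochondrial seryl-tRNA synthetase, which runs the other way, and it holds 3 CCAAT boxes. The sequence under Mrpl46 is the stretch of 41 bases (chr7:78783090-78783130, minus) between its RefSeq start and that of Mrps11, and it holds none of the 4 motifs. Annotations differ on these starts. GENCODE M21 exons of the same gene cover 29 of the bases printed for Mrpl3 and 24 of those printed for Mrpl12. The start in the authors' table is the RefSeq one for Mrpl3 and Mrpl46 and lies downstream of it by 32 bases for Mrpl12 and 40 for Mrps12, while the longest GENCODE M21 gene models of Mrpl46 and Mrps11 overlap at their 5′ ends.

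The shares of member windows holding a motif were set beside those of all windows for 4 motifs, on both strands and with any match in the window counted. The NRF1 motif, a near-palindrome seen in capitals above, was in 12 of 73 member windows (16.4%) and in 4.60% of all 32851 windows. CCGGAAGT, for ETS factors, was also in 12 of 73 (16.4%), beside 3.89% of all windows. The YY1 motif was in 5 of 73 (6.85%), beside 0.852%. CCAAT, the box bound by NF-Y, was in 30 of 73 (41.1%), beside 37.4%. Tested genes also held the first 3 motifs at larger shares than genes in general. Counted by gene, NRF1 letters were found for 17.9% of matched members, 11.0% of 9819 matched tested genes and 5.19% of all genes with a window. The ETS shares in that order were 17.9%, 8.58% and 4.31%, the YY1 shares 7.46%, 2.31% and 0.995%, and the CCAAT shares 40.3%, 42.8% and 41.1%. NRF1 letters were found for 5 of 29 matched members that fell and 7 of 38 that did not pass, ETS letters for 6 of 29 and 6 of 38, YY1 letters for 2 of 29 and 3 of 38, and CCAAT for 14 of 29 and 13 of 38. These shares are descriptions without a test, and a match is not a bound site.

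Of 49 large subunit genes, 21 fell and 0 rose, with a median log2 difference of −0.51. The largest falls were in Mrpl42, a protein of the mitochondrial lineage, from 129 to 73.1 FPKM, and Mrpl28, a counterpart of bacterial ribosomal protein L28, from 139 to 80.9 FPKM. They were also the most abundant transcripts of the subunit. Mrpl42 lies on chromosome 10 from 95480806 to 95501927 and Mrpl28 on chromosome 17 from 26123503 to 26126613 (mm10). Mrpl3, whose bacterial counterpart sits near the peptidyl transferase centre, fell from 55.7 to 32.5 FPKM. Mrpl27, whose counterpart reaches into that centre, fell from 62.8 to 37.8 FPKM. In the authors' deposited table the q-values of these 4 genes were between 0.00185 and 0.00812. The 5 members of the subunit with a q under 0.01 are these 4 and Mrpl23.

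Several proteins of the subunit lie along the nascent chain exit tunnel. Mrpl23, at the rim of the tunnel, fell from 101 to 59.2 FPKM, and Mrpl4, which helps line it, from 84.9 to 57.4 FPKM. Mrpl22 (34.3 and 24.6 FPKM), Mrpl24 (29.6 and 21.2 FPKM) and Mrpl45, which anchors the ribosome to the inner membrane (17.3 and 13.1 FPKM), did not pass. Other proteins form the stalk that recruits translation factors. Mrpl12, its flexible arm, which also binds mitochondrial RNA polymerase, fell from 89.7 to 58.1 FPKM. Mrpl10 and Mrpl11 at the base of the stalk stood at 37.6 and 27.7 FPKM and at 11.5 and 8.06 FPKM, with q-values of 0.0973 and 0.0705 in the authors' deposited table. The differences of the 3 stalk genes on the log2(FPKM + 1) scale were −0.62, −0.43 and −0.47, and whether they differ from each other was not tested.

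Among the other large subunit genes that fell, Mrpl33 went from 72.9 to 43.7 FPKM and Mrpl14 from 64.3 to 40.7 FPKM. Mrpl18, whose bacterial counterpart binds 5S ribosomal RNA, went from 88.0 to 58.9 FPKM. Mrpl34, Mrpl54 and Mrpl36 encode small proteins of the subunit. Mrpl34 went from 79.3 to 52.0 FPKM, Mrpl54 from 74.6 to 47.7 FPKM and Mrpl36 from 67.4 to 42.9 FPKM. Mrps18a, 1 of 3 relatives of bacterial S18, went from 64.5 to 41.2 FPKM. The related proteins Mrpl37 and Mrps30 are additions of the mitochondrial lineage. Mrpl37 fell from 49.5 to 31.8 FPKM and Mrps30 from 36.6 to 25.4 FPKM. The remaining falls were in Mrpl2, Mrpl15, Mrpl16, Mrpl30 and Mrpl46, with log2 differences from −0.65 to −0.52.

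Of 26 small subunit genes, 12 fell and 0 rose, with the same median of −0.51. Mrps21 was the most abundant member of the whole family and fell from 146 to 81.3 FPKM. It lies on chromosome 3 from 95862652 to 95870619 in mm10. Mrps24, the counterpart of bacterial S3, fell from 58.9 to 33.0 FPKM and had the smallest q of the family in the authors' deposited table, 0.00165. It lies on chromosome 11 from 5703983 to 5707699. Mrps15, which helps organise the platform of the subunit in bacteria, fell from 70.3 to 41.1 FPKM. Mrps28 fell from 53.3 to 31.3 FPKM and Mrps14, a protein of the head of the subunit, from 28.2 to 16.9 FPKM. These 5 genes had the largest falls of the subunit and a q under 0.01 in the authors' deposited table.

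The decoding and messenger-binding proteins of the small subunit did not all pass. Mrps12, the decoding centre protein, fell from 64.6 to 39.5 FPKM and Mrps7, a protein of the head, from 50.5 to 34.3 FPKM. Mrps5, whose counterpart stands at the messenger entry, was at 32.3 and 28.0 FPKM and did not pass (q = 0.498 in the authors' deposited table). The S18 relatives of this subunit both fell, Mrps18b from 45.4 to 29.7 FPKM and Mrps18c from 62.7 to 39.3 FPKM. Proteins of the mitochondrial lineage that fell were Mrps34, from 58.7 to 37.7 FPKM, Mrps26, from 61.6 to 42.4 FPKM, and Mrps33, from 34.6 to 23.1 FPKM. Mrps18b was classed with them here despite its relation to S18. Mrps36, in neither subunit, fell from 39.2 to 24.5 FPKM.

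**Figure D2:**
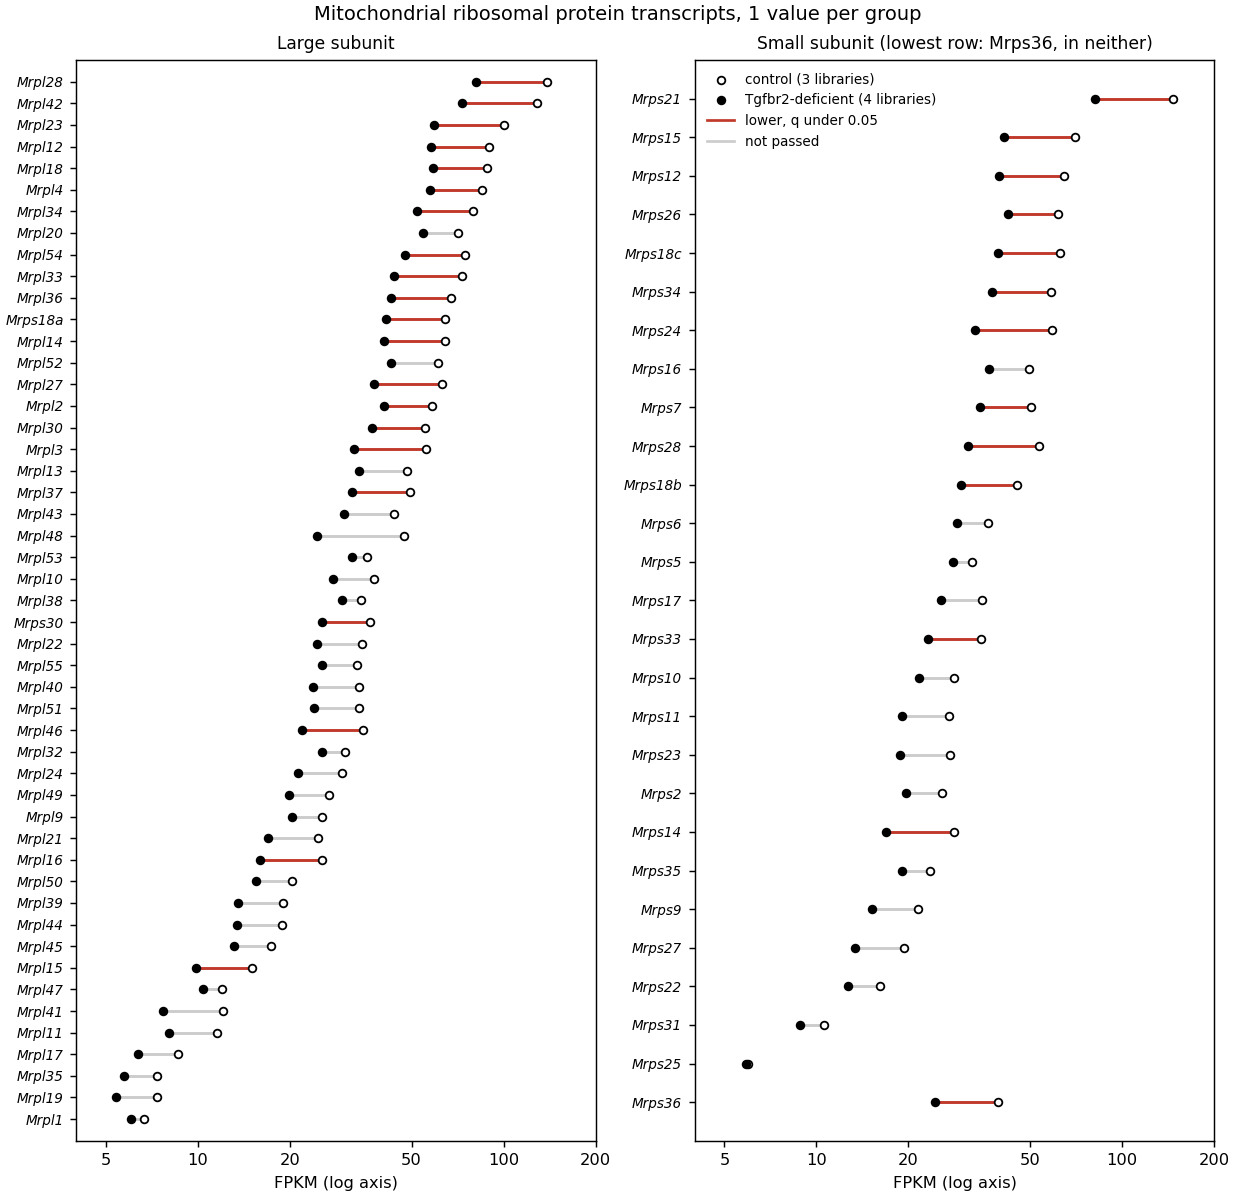
Every member is a row, ordered by mean level within its subunit, with the control FPKM as an open circle and the Tgfbr2-deficient FPKM as a filled circle on a log axis. The filled circle lies to the left in all 76 rows, and red lines mark the 34 genes with a q under 0.05.

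The threshold cut through a continuous series of like differences. Just inside it in the authors' deposited table were Mrpl2 (q = 0.0497), Mrps30 (q = 0.0496) and Mrps26 (q = 0.0491), and just outside were Mrpl43 (q = 0.0521) and Mrps23 (q = 0.0609). Mrpl43 stood at 43.7 and 30.02 FPKM and Mrps23 at 27.4 and 18.8 FPKM. Another 10 members had a q from 0.05 to 0.1, namely Mrpl51, Mrpl11, Mrps27, Mrpl21, Mrpl13, Mrpl40, Mrpl39, Mrps11, Mrpl10 and Mrps9. Mrpl39 is related to threonyl-tRNA synthetases and Mrps27 is a pentatricopeptide repeat protein. Of the 30 members with a q above 0.1, the authors' deposited table gave 4 a q above 0.5. They were Mrpl47 (11.96 and 10.4 FPKM), Mrpl1 (6.65 and 6.02 FPKM), Mrpl53 (35.6 and 31.9 FPKM) and Mrps25 (5.98 and 5.89 FPKM).

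Mrpl48 had the largest difference of the family but did not pass. Its level was 47.2 FPKM in controls and 24.5 FPKM in the other group, a log2 difference of −0.92, with q = 0.244 in the authors' deposited table. Its entry spans chromosome 7 from 100549117 to 100641268 and overlaps other annotated genes, and GENCODE M21 also lists a processed pseudogene, Mrpl48-ps. The smallest difference was that of Mrps25, −0.02. In Mrps25, 69.8% of the annotated exon bases are shared with Nr2c2, and in Mrpl53, 88.0% with Ccdc142os and Gm42688.

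Members whose proteins have bacterial counterparts and those added in the mitochondrial lineage had like medians. Of 45 with a counterpart, 23 fell (51.1%), with a median log2 difference of −0.52. Of 30 without, 10 fell (33.3%), with a median of −0.50. Beside these shares, 14.7% of all tested genes were called lower, and 31.5% of those at 20 FPKM or more. Mrps18a and Mrps18b, though related to bacterial S18, were counted among the 30. The counterparts were also the more abundant group, with a control median of 48.2 FPKM against 33.9 FPKM. Level therefore moves with this split, and its part in the counts was not tested.

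Transcript levels within the family were unequal and kept their order between the groups. The proteins are built into the ribosome mostly as single copies, yet control levels ran from 5.98 FPKM for Mrps25 to 146 FPKM for Mrps21, a 24.5-fold range. In the Tgfbr2-deficient group they ran from 5.38 FPKM for Mrpl19 to 81.3 FPKM for Mrps21, a 15.1-fold range. At the low ends, Mrps25 shares 69.8% and Mrpl19 36% of its annotated exon bases with another gene. The part of overlap and annotated length in these ranges was not tested. The rest of the least abundant members were Mrpl1 and Mrpl35 (7.33 and 5.71 FPKM) in the large subunit and Mrps31 (10.6 and 8.81 FPKM) and Mrps22 (16.1 and 12.7 FPKM) in the small subunit. Median levels of the subunits lay close together, at 35.6 FPKM for the large and 34.7 FPKM for the small subunit in the control group, and at 25.5 and 26.8 FPKM in the Tgfbr2-deficient group. Summed over its members, the large subunit had 0.666 and the small subunit 0.661 times the control FPKM. Log2 levels of the 76 members in both groups had a Pearson correlation of 0.99 and a Spearman correlation of 0.98, as a description across genes. The rank of 64 of 76 members moved by at most 5 places. Mrpl48 went from place 31 to place 43.

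The genes are spread over 17 chromosomes, with 10 on chromosome 11 and 8 on chromosome 17. On chromosome 17, 7 of the 8 fell, namely Mrpl2, Mrpl14, Mrpl18, Mrpl28, Mrps18a, Mrps18b and Mrps34, and Mrps10 did not pass. On chromosome 6, 1 of 7 fell, Mrps33. In the whole family 34 of 76 fell (44.7%), beside 14.7% of all tested genes. The 7 that fell on chromosome 17 had a mean FPKM of both groups from 37.5 to 110. For the chromosome 6 members it ran from 5.94 to 33.8. Level therefore moves with this contrast, and its part in the counts was not tested. These chromosomes were picked out after the values were seen, and no test was made of them.

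Overlap with other genes limits some single values, since the library kits do not mark the strand. In GENCODE M21, 18 of the 76 members share at least 10% of their exon bases with another gene, and 9 of these fell. Those 9 were Mrps34 (77.8%, with Mapk8ip3 and Nme3), Mrps18b (30.5%), Mrps18c (23.2%), Mrps24 (15.4%), Mrpl12 (13.1%), Mrpl46 (12.2%), Mrps7 (11.9%), Mrpl14 (11.2%) and Mrpl18 (10.1%). The table's spans of 35 members touch another gene. Besides Mrps34, Mrps18b, Mrps18c, Mrpl12, Mrpl46, Mrpl14, Mrpl18, Mrps25, Mrpl48 and Mrpl53, these were Mrpl2, Mrpl3, Mrpl9, Mrpl10, Mrpl15, Mrpl17, Mrpl19, Mrpl21, Mrpl24, Mrpl27, Mrpl33, Mrpl40, Mrpl41, Mrpl43, Mrpl44, Mrpl45, Mrpl49, Mrps6, Mrps9, Mrps11, Mrps18a, Mrps22, Mrps27, Mrps28 and Mrps30. Of the 41 members whose spans in the table touch no other gene, 19 fell (46.3%) and 0 rose, with a median log2 difference of −0.50. In 7 of these 41, namely Mrps24, Mrps7, Mrps26, Mrpl13, Mrpl36, Mrpl47 and Mrpl51, longer GENCODE transcripts still share exon bases with another gene. Of the 34 members with neither kind of overlap 15 fell and 0 rose, with a median of −0.49. Processed pseudogenes are annotated for Mrpl23, Mrpl48 and Mrps36, so reads of these 3 genes may be shared.

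Many members start back to back with a neighbour. A protein-coding gene on the opposite strand began within 1000 bases of the 5′ end of 32 of 76 members (42.1%), beside 10.8% of 21951 protein-coding genes in GENCODE M21 and 15.4% of those tested here. Mrpl46 and Mrps11 are such a pair within the family. Mrpl46 fell from 34.6 to 21.9 FPKM, and Mrps11 stood at 27.2 and 19.0 FPKM with q = 0.0914 in the authors' deposited table. Mrps12 and Sars2 fell alike, Sars2 from 17.8 to 11.1 FPKM.

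Most partners outside the family had a higher log2 difference than the member they adjoin. Of 27 such partners that passed the filter, 3 fell (11.1%, beside the background of 14.7%), 2 rose and 22 did not pass, while 13 of the 27 members beside them fell. The median log2 difference was −0.22 for the partners and −0.54 for the members, beside −0.08 for all tested genes. In 23 of 27 pairs the partner had the higher log2 difference. Control levels of these partners ran from 1.33 FPKM for Zfp661 to 311 FPKM for Fau. Partners and members were not matched for level, and tested genes under 20 FPKM had a median of 0.15. The 3 that fell were Sars2, Pnpla7, beside Mrpl41, from 37.1 to 22.7 FPKM, and Fau, beside Mrpl49, a cytoplasmic ribosomal protein gene, from 311 to 199 FPKM. Tmem63b, an ion channel gene beside Mrpl14, rose from 8.69 to 17.8 FPKM, and Rab6a, a GTPase gene of Golgi transport beside Mrpl48, from 36.8 to 54.8 FPKM. Where annotated 5′ ends overlap, as for those last 2 pairs, reads of the partners may be shared.

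**Figure D3:**
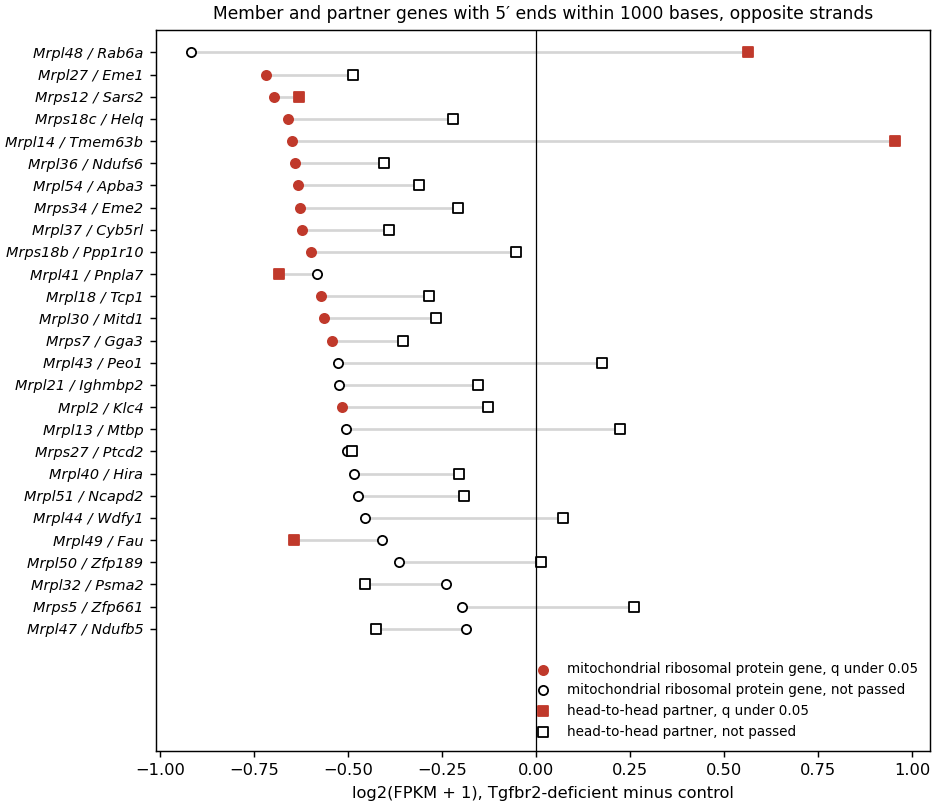
Each row is a member (circle) and its back-to-back partner (square) with their log2(FPKM + 1) differences, Tgfbr2-deficient minus control; red symbols passed a q of 0.05 and white symbols did not. In 23 of 27 rows the square lies to the right of the circle.

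Lists of other genes that serve the mitochondrial ribosome had medians nearer 0 and lower median levels than the members. This difference was not tested, and single genes such as Rbfa stood beyond the members' range. All tested genes under 20 FPKM had a median of 0.15, and those at 20 FPKM or more −0.38. Every list median lay below the first of these values. For lists with a control median under 20 FPKM, being nearer 0 therefore does not mean a smaller difference at like level. Of 7 mitochondrial ribosomal proteins filed under other symbols, 0 passed in either direction by the authors' Cuffdiff q. The smallest q of these in the authors' deposited table was 0.0537, for Aurkaip1. Aurkaip1 stood at 53.3 and 37.3 FPKM and Chchd1, also of the small subunit, at 56.4 and 37.6 FPKM. Their list median was −0.28, above the −0.38 of tested genes at 20 FPKM or more, and their control median was 21.9 FPKM. The other 5 were Ict1, a release factor relative, Mrp63, Gadd45gip1, Ptcd3 and Dap3. Of 17 translation factors and their helpers 1 fell (5.88%), Tufm, the elongation factor Tu, from 71.5 to 50.4 FPKM, and the list median was −0.35. Beside both counts, 14.7% of all tested genes were called lower, with 31.5% at 20 FPKM or more and 5.36% under it.

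Mitochondrial aminoacyl-tRNA synthetases and amidotransferase subunits charge transfer RNAs. Of 20 such genes, 5 fell (25%) and 1 rose, with a median of −0.28. By the same rule 5.36% of tested genes under 20 FPKM were called lower and 31.8% higher, beside 14.7% and 23.9% of all tested genes. Cars2 fell from 14.1 to 8.51 FPKM, Pet112, an amidotransferase subunit, from 12.5 to 7.58 FPKM and Yars2 from 28.0 to 18.2 FPKM, besides Sars2 and Vars2. Fars2, the phenylalanyl enzyme, rose from 11.2 to 17.3 FPKM. Of 27 ribosome assembly factors 3 fell and 0 rose, with a median of −0.31. Rbfa, which helps mature the small subunit, fell from 133 to 64.9 FPKM, Rpusd4, a pseudouridine synthase, from 20.9 to 13.5 FPKM and Fastkd2, an RNA-binding protein, from 11.0 to 7.39 FPKM. Of 15 genes of mitochondrial DNA transcription and maintenance 0 fell and 1 rose, Mterfd3, from 0.676 to 1.48 FPKM, and the median was −0.23. Mterfd3 reached 1 FPKM only in the Tgfbr2-deficient group, so under the filter it could be counted only as higher. Mterf, at 0.804 FPKM in controls and 0.559 FPKM in the other group, was left out by the filter. In the control group the medians of these lists lay between 8.21 and 21.9 FPKM, below the 35.2 FPKM of the members. The 21.9 FPKM was that of the ribosomal proteins under other symbols. Their 0 of 7 therefore stands, by median, at 20 FPKM or more, where the table called 31.5% of tested genes lower. The medians of the other lists lay under 20 FPKM, where the table called fewer genes lower.

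The nuclear-encoded subunits of oxidative phosphorylation and the proteins of the cytoplasmic ribosome, which are more abundant, had medians near that of the members. Of 74 oxidative phosphorylation genes, 19 fell (25.7%) and 0 rose, and the median log2 difference was −0.45. Ndufs8, an iron-sulfur subunit of complex I, fell from 164 to 93.6 FPKM and Sdhd, a membrane anchor of complex II, from 196 to 118 FPKM. By complex, 7 of 36 fell in complex I, 2 of 4 in complex II, 3 of 9 in complex III, 2 of 10 in complex IV and 5 of 15 in complex V, with medians from −0.50 to −0.44. Of 78 cytoplasmic ribosomal protein genes, 39 fell (50%) and 0 rose, and the median was −0.54. Among them Rps12, a protein of the small subunit, fell from 184 to 104 FPKM. Their control medians were 149 FPKM for oxidative phosphorylation and 251 FPKM for the cytoplasmic ribosome. The shares can be read beside the 31.5% of tested genes called lower at 20 FPKM or more. At that level 19 of 72 oxidative phosphorylation genes fell (26.4%), which is under that share. Of the members 33 of 61 fell (54.1%), and of the cytoplasmic ribosomal protein genes 39 of 75. Whether the 3 sets differ from each other was not tested.

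**Figure D4:**
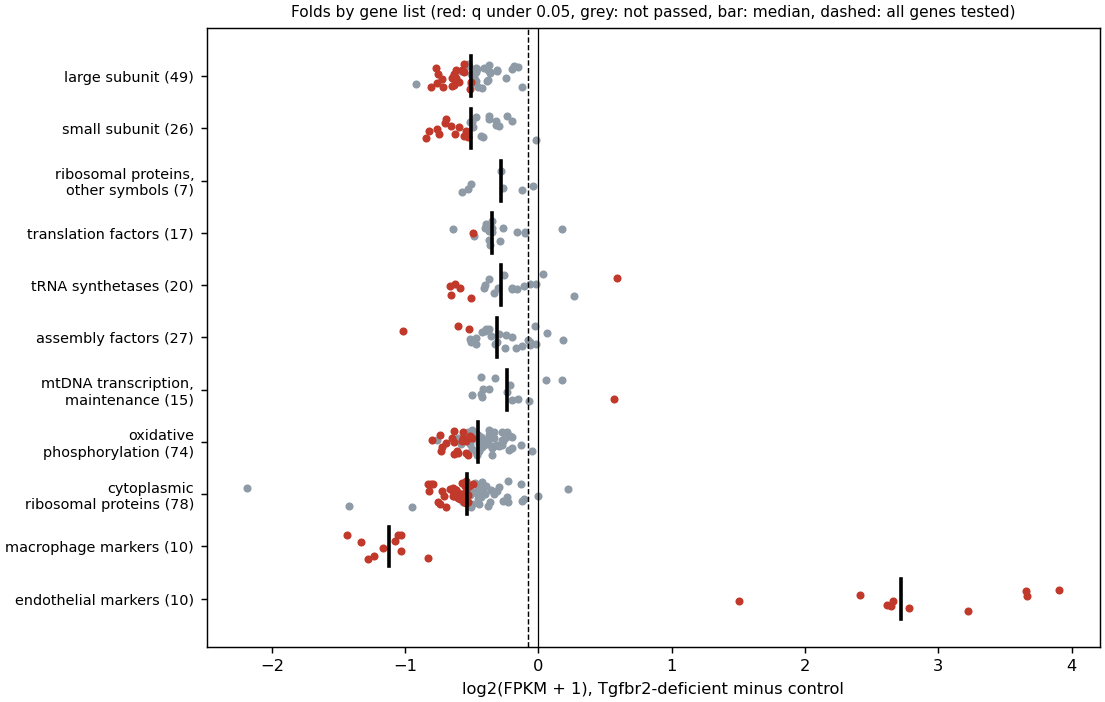
Each point is a gene that passed the filter, placed by its log2(FPKM + 1) difference, Tgfbr2-deficient minus control, in rows by gene list with the number of genes in parentheses; black bars are medians and vertical jitter has no meaning. Both subunits of the mitochondrial ribosome have a median of −0.51, near that of the cytoplasmic ribosomal proteins at −0.54, while the macrophage markers have a median of −1.12 and the endothelial markers of 2.72.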

How the data were processed

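Sequencing used single-end 50-base reads. Per the labels' protocols, libraries were made with SMART-Seq v4 and Nextera XT. These kits do not mark the strand. Per the submitters' processing notes, TopHat2 (given as 0.7), Cufflinks 2.2.1 and Cuffdiff were used with mm10. The annotation and the options used were not given in the sources used here.

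Gene values come from a deposited table, which is Cuffdiff output, per the file headers. The FPKM values are the authors' single value per group, with the libraries already combined, and depth is unknown. The deposited log2 fold has no pseudocount and gave the direction of each call, and the test statistic, a score deposited by the authors, was not used. The p-value and q-value are the authors' own. The main rule took genes the authors tested (14043 entries), with 1 FPKM reached in either group, and q under 0.05. Differences are log2 of (FPKM + 1), which understates the change of low genes. NRF1 and YY1 motifs are named by factor only. The calling and motif code was tested on simulated data.

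Members and lists were chosen with earlier results of these data known. Of 374 list entries, 354 matched by symbol and 14 through RefSeq synonyms. The genes named are the 15 members with the largest falls, the most and least abundant of each subunit, those near the threshold, those overlapping other genes and up to 4 per related list, and others as examples chosen after their values were seen. Spans in the table count from 0 and are given from 1. Python 3.11.15 with pandas 2.3.3 was used. Alternatives were no filter, 20 FPKM, q under 0.01, recomputed q-values, an absolute log2 fold of at least 0.5 in addition, a pseudocount of 0.1 FPKM, 2 centrings and members whose spans in the table overlap no other gene, and, added after seeing the data, those that also share no exon bases. Protein sequences were not used here.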

Additional observations from a re-analysis of the deposited data

How the results depend on the processing

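No paired analysis was possible because the table holds 1 value per group, and leaving out single libraries was not run for the same reason. The 34 falls stayed 34 with no filter, with recomputed q-values and with an added minimum log2 fold of 0.5, and were 33 at 20 FPKM; 0 members rose under every alternative run. At q under 0.01, 10 members fell (background 7.68%), 5 in each subunit, beside 3 oxidative phosphorylation genes, 9 cytoplasmic ribosomal protein genes and 1 of the related mitochondrial genes, of which 0 rose. Of those related genes 9 fell and 2 rose in the main count, and 4 and 0 at 20 FPKM, where fewer genes enter. Of members whose spans overlap no other gene 19 of 41 fell, and of those that also share no exon bases, a choice made after seeing the data, 15 of 34, where fewer genes enter. The family median was −0.53 with 0.1 FPKM added, −0.43 centred on all tested genes and −0.54 at 20 FPKM. Centred on cytoplasmic ribosomal protein genes it reversed to 0.0238, as did Mrpl2 (0.0204), Mrps26 (0.00785) and Mrps30 (0.0273), by construction of the added shift. Depth per library is unknown, so what it limits cannot be given.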
